A study of Danio rerio with 24 samples.

Results

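The proteasome is the large protease that degrades proteins tagged with ubiquitin. Its 20S core is a barrel of stacked rings, in which alpha subunits form the gate and beta subunits line the chamber and carry the proteolytic sites. The 19S regulatory particle caps the core: a ring of ATPases unfolds the substrate and opens the gate, and the non-ATPase subunits bind ubiquitin, remove it and hold the lid together. In cells with immune or thymic functions, other beta subunits replace the constitutive catalytic ones, and activator rings of the 11S type can take the place of the 19S particle. Dividing and growing cells use the complex to destroy cyclins and misfolded proteins, and the digestive glands, which make secreted proteins in bulk, dispose of failed products of the endoplasmic reticulum through it.

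Members were the genes whose annotated symbol begins with psma, psmb, psmc, psmd, psme, psmf or psmg followed by a digit. They came to 50 of the 8793 genes on the array and were covered by 61 probe sets, of which the 1 with the highest mean over the 24 arrays stood for each gene. All 50 were found by gene identifier in RefSeq. The name rule also caught psmc3ip, a partner of the meiotic recombinases, and psme3ip1, a binding partner of the PSME3 activator, which are not subunits of the complex. The other 48 genes were 8 alpha subunits, 7 constitutive beta subunits, 5 immune or thymic beta subunits, 7 ATPases, 11 non-ATPase subunits, 3 chaperones of 19S assembly, 3 chaperones of 20S assembly, 3 activators and 1 inhibitor. The alpha, constitutive beta, ATPase and non-ATPase genes together, 33 in all, are called the constitutive subunits.

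The samples were cells of homozygous Tg(XlEef1a1:GFP)s854 zebrafish embryos, a line in which a Xenopus Eef1a1 promoter drives green fluorescent protein (GFP), and the title of the series names the development of the gastrointestinal tract. All embryos were kept in 1-phenyl-2-thiourea, which blocks pigment, and were dissociated with trypsin, EDTA, proteinase K and collagenase. Cells were sorted by fluorescence into GFP+ and GFP- gates at 2, 3, 4 and 6 days post fertilization (dpf), which gave 8 groups of 3 arrays each. No untreated or unsorted group was used here, and whether the replicates came from separate clutches is not stated in the labels. The GFP- gate therefore holds every other cell type of the embryo and any digestive cell below the gate, and p-values cover no more than the scatter of these samples. In bulk samples, a change in the share of a cell type and a change in RNA per cell cannot be told apart.

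Values are scores per probe set, scaled so that the median on every array is 0 and the standard deviation (SD) is 1. A difference of 1 is therefore 1 array SD, and a score above 0 lies above the median probe set of that array. Fold changes cannot be given because the log base is not given in the sources used here. A gene was called higher or lower when its Benjamini-Hochberg adjusted p in limma's moderated test, taken over all 15502 probe sets tested, was under 0.05. Differences are given with their standard error (SE), and the smallest p that an exact permutation of 3 arrays against 3 allows is 0.1, so each call from such a comparison rests on the model.

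Digestive organ genes checked the gates: all 18 markers measured scored higher in the GFP+ gate when the 4 ages were averaged, and the 14 neuron and retina markers were all lower. The GFP- gate gained digestive transcripts with age, the median of the list running from -0.29 to -0.12 on its arrays at 2 dpf and from 1.64 to 1.93 at 6 dpf. The GFP+ arrays at 6 dpf had 2.40, 2.27 and 1.92, the last on the third array. The gates therefore overlapped on this list at that age. On GFP+ arrays at 2 dpf the medians were 1.26 to 1.49 for digestive, 1.5 to 1.91 for epidermis and 1.18 to 1.57 for muscle markers. The GFP- arrays of that age had 2.14 to 2.49 for epidermis and 1.14 to 1.75 for muscle, where the gates overlapped. Of the GFP+ arrays at 6 dpf, the third was unlike its group. Its mean correlation with its group was 0.897, and its upper quartile of scores was 0.744 against at least 0.868 on the other arrays. Proteasome genes were low on it: 45 of the 50 members had their lowest score of that group there (90%, against 46.8% of all probe sets), and 29 of 50 had their lowest of all 24 arrays there (58%, against 17.7%). The main counts are given with this array and without it, together with many, though not all, of the single values it moves. The GAPDH control probe sets, a measure of RNA quality, differed between the 3' and 5' ends by 0.399 to 0.755 on GFP+ and 0.236 to 0.269 on GFP- arrays at 2 dpf, by 0.097 to 0.429 and 0.126 to 0.29 at 3 dpf, by 0.029 to 0.692 and 0.202 to 0.451 at 4 dpf, and by -0.128 to 0.272 and 0.242 to 0.848 at 6 dpf; their part in the results was not tested.

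As a group, the constitutive subunits lay above the array median on every array. The median score over the 33 genes in GFP+ cells was 1.69, 1.66 and 1.9 at 2 dpf, then 1.85, 1.63 and 1.69 at 3 dpf, then 1.68, 1.77 and 1.83 at 4 dpf and lastly 1.42, 1.39 and 0.53 at 6 dpf. In GFP- cells the same median was 1.76, 1.74 and 1.75 at 2 dpf, then 1.58, 1.61 and 1.47 at 3 dpf, then 1.33, 1.24 and 1.54 at 4 dpf and lastly 1.15, 1.08 and 1.05 at 6 dpf. The gates overlapped at 2 dpf, GFP- cells were below every GFP+ array at 3 and 4 dpf, and both gates were lower at 6 dpf, where the third GFP+ array fell below all GFP- arrays. The other 2 GFP+ arrays at 6 dpf lay above the 3 GFP- arrays. The margin at 3 dpf was narrow, 1.63 against 1.61. After quantile normalization the gates overlapped at 3 dpf, with 1.85, 1.59 and 1.67 in GFP+ and 1.61, 1.63 and 1.49 in GFP- cells. The mean of the group was highest in GFP+ cells at 2 dpf for 11 of the 33 constitutive genes, in GFP- cells at 2 dpf for 9 and in GFP+ cells at 4 dpf for 9, and it was lowest in GFP- cells at 6 dpf for 23.

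**Figure D1:**
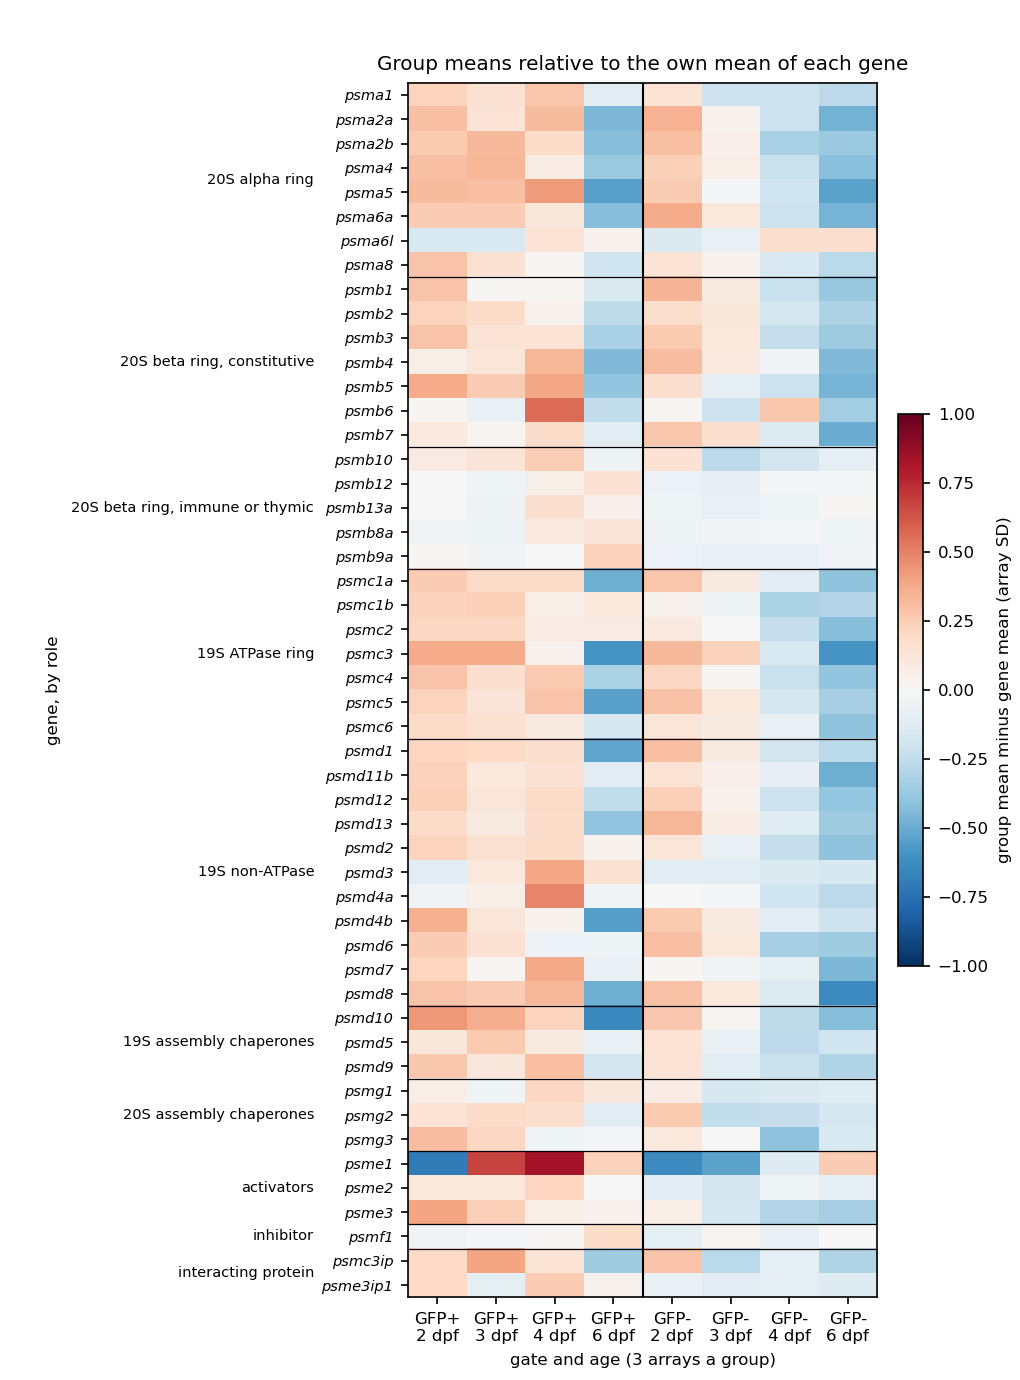
Mean score of each of the 50 genes in the 8 groups, less the mean of that gene over the groups, in array SD, ordered by role. Most constitutive subunits are red at 2 dpf in both gates and blue in GFP- cells at 4 and 6 dpf, while GFP+ cells stay red at 4 dpf, and psme1 has the widest swing.

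**Figure D2:**
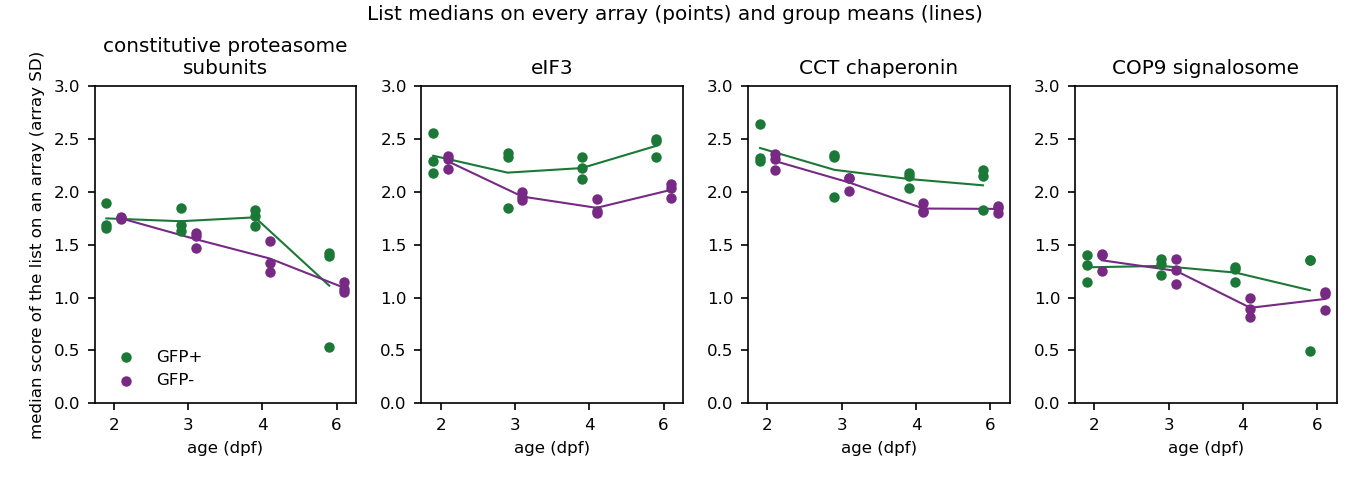
Median score on every array (points; green GFP+, purple GFP-) and the mean of the 3 arrays (lines) for the 33 constitutive proteasome subunits and for the genes of eIF3, the CCT chaperonin and the COP9 signalosome, against age in dpf. The proteasome median falls from 1.76, 1.74 and 1.75 to 1.15, 1.08 and 1.05 in GFP- cells, and the low green point at 6 dpf is the third GFP+ array at 0.53.

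With age, members of the family moved down in both gates more often than probe sets at large. Between 2 and 6 dpf, 28 of the 50 genes were lower and 0 higher in GFP- cells (56% lower, where 9.64% of all probe sets were called lower and 8.77% higher), with a median difference of -0.50 against -0.03 for all probe sets. In GFP+ cells 25 were lower and 1, psme1, was higher (50% lower, where 13% of all were lower and 9.17% higher), with a median of -0.35 against 0.05. Leaving out the third GFP+ array at 2 dpf, the GFP+ calls came to 17, with no share of all probe sets beside them. When the third GFP+ array at 6 dpf was left out, 15 genes were lower and 6 higher in GFP+ cells, against 11.2% lower and 12.2% higher among all probe sets, and the median was -0.23. In GFP- cells, whose values do not involve that array except through the shared spread, the counts were then 31 lower and 2 higher, against 11.3% and 9.54% of all. Genes that mark cycling cells fell over the same span, 14 of 16 called lower in GFP+ cells (13 without the third array at 6 dpf) and 15 of 16 in GFP- cells. The cycling median ran from 1.02 to 1.28 on the GFP+ arrays at 2 dpf and from -0.29 to 0.10 at 6 dpf, and from 0.97 to 1.28 and from 0.05 to 0.08 in GFP- cells. Of 11 muscle markers 9 were lower in each gate, the median running from 1.18 to 1.57 on GFP+ arrays at 2 dpf and from -0.40 to -0.06 at 6 dpf. Of 14 epidermis markers 10 were lower in GFP+ cells, with medians of 1.5 to 1.91 and then 0.07 to 0.37, and 3 in GFP- cells, where 2 were higher. Of 16 genes of heat and dissociation stress 7 were lower in GFP+ cells, with medians of 1.90 to 2.02 and then 0.40 to 1.21, the lowest on the third array at 6 dpf, and 4 in GFP- cells. Neuron and retina markers moved the other way in GFP- cells, 9 of 14 called higher and 3 lower, with medians of 0.87 to 1.38 and then 2.24 to 2.46. The part of these lists in the proteasome result was not tested.

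Calls came from every ring of the core and the cap. Of the 33 constitutive genes, 25 were lower with age in GFP- cells and 22 in GFP+ cells, the latter 13 without the third GFP+ array at 6 dpf, when 2 (psma6l and psmd3) were higher. Among the 8 alpha subunits 6 were lower in each gate, among the 7 constitutive beta subunits 6 in GFP- and 5 in GFP+ cells, among the 7 ATPases 5 in each, and among the 11 non-ATPase subunits 8 in GFP- and 6 in GFP+ cells. The GFP+ counts became 5 alpha, 3 beta, 3 ATPase and 2 non-ATPase subunits without the third GFP+ array. The alpha subunits called lower in both gates were psma2a, psma2b, psma4, psma5, psma6a and psma8, and in GFP+ cells their differences ran from -0.86 for psma5 to -0.48 for psma8, a paralogue of the ring known in mammals from the testis. The beta subunits psmb1, psmb2, psmb3, psmb4 and psmb5 were lower in both gates, and psmb7 in GFP- cells. Of the ATPases, psmc1a, psmc3, psmc4 and psmc6 were lower in both gates, psmc2 in GFP- cells and psmc5 in GFP+ cells. Of the non-ATPase subunits, psmd4b, psmd6, psmd8, psmd11b and psmd13 were lower in both gates, psmd2, psmd7 and psmd12 in GFP- cells and psmd1 in GFP+ cells. The GFP+ calls of psma6a, psmb1, psmb4, psmc5, psmc6, psmd1, psmd6, psmd11b and psmd13 were lost without the third GFP+ array at 6 dpf. Their differences then ran from -0.37 for psmb1 to -0.20 for psmc6, and that of psmc5, -0.76 with the array, was -0.31. In GFP- cells that fit called all 7 ATPases lower, psmc5 and psmc1b included, and 9 non-ATPase subunits. The GFP- group mean of psmc5 was 1.42 at 2 dpf and 0.79 at 6 dpf. That of psmd1 was 1.75 and 1.18. A second psmd12 probe set, at -0.19 in GFP- cells, was not called. A call in 1 gate and none in the other is no test of a difference between the gates.

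The largest falls belonged to an ATPase, a lid subunit and a chaperone. The psmc3 score on GFP+ arrays was 1.58, 1.56 and 1.87 at 2 dpf, then 1.91, 1.63 and 1.48 at 3 dpf, then 1.54, 1.02 and 1.48 at 4 dpf and lastly 1.05, 0.9 and 0.18 at 6 dpf. On GFP- arrays psmc3 stood at 1.62, 1.67 and 1.6 at 2 dpf, then 1.61, 1.61 and 1.37 at 3 dpf, then 1.06, 1.22 and 1.16 at 4 dpf and lastly 0.44, 0.92 and 0.77 at 6 dpf. PSMC3 is an ATPase of the ring that threads substrates into the core. Its score dropped in both gates, by 0.96 (SE 0.18, adjusted p = 0.000627) in GFP+ and by 0.92 (SE 0.18, adjusted p = 0.0013) in GFP- cells, and no array at 6 dpf reached any array of its gate at 2 dpf. Without the third GFP+ array the GFP+ value was -0.69 (SE 0.16). For psmd8 the GFP+ arrays gave 1.47, 1.58 and 1.75 at 2 dpf, then 1.66, 1.5 and 1.56 at 3 dpf, then 1.77, 1.38 and 1.8 at 4 dpf and lastly 1.05, 1.38 and 0.05 at 6 dpf. Those of psmd8 from GFP- cells gave 1.54, 1.68 and 1.61 at 2 dpf, then 1.37, 1.56 and 1.35 at 3 dpf, then 1.13, 1.07 and 1.34 at 4 dpf and lastly 0.53, 0.7 and 0.81 at 6 dpf. PSMD8 is a lid subunit whose yeast counterpart is the last to join the lid. The difference of psmd8 between 6 and 2 dpf was -0.93 (SE 0.21, adjusted p = 0.00361) in GFP- cells, and -0.77 (SE 0.21, adjusted p = 0.0111) in GFP+ cells; with the third GFP+ array omitted the latter was -0.38 (SE 0.13). In GFP+ cells psmd10 scored 0.89, 1.02 and 1.16 at 2 dpf, then 1.11, 0.85 and 0.9 at 3 dpf, then 0.96, 0.42 and 1.06 at 4 dpf and lastly 0.22, -0.07 and -0.32 at 6 dpf. In GFP- cells psmd10 scored 0.8, 0.68 and 1.1 at 2 dpf, then 0.6, 0.63 and 0.62 at 3 dpf, then 0.36, 0.02 and 0.62 at 4 dpf and lastly 0.17, 0.2 and 0.13 at 6 dpf. PSMD10, or gankyrin, is a chaperone that guides assembly of the ATPase ring and is best known as an oncoprotein in human liver. It had the deepest fall of the family in GFP+ cells, -1.08 (SE 0.17, adjusted p = 7.99e-05), and -0.69 (SE 0.17, adjusted p = 0.0058) in GFP- cells, and all 3 GFP+ arrays at 6 dpf lay below every GFP+ array at the earlier ages. Without the third GFP+ array the fall of psmd10 was -0.95 (SE 0.18) and was still called. Among the other chaperones, psmd9 was lower in both gates (a second psmd9 probe set, at -0.14 in GFP+ and -0.32 in GFP- cells, was not called). Its GFP+ value of -0.45 became -0.30, not called, without the third GFP+ array. The chaperone psmd5 and the 20S chaperones psmg1, psmg2 and psmg3, which build the alpha ring, passed the test in neither gate.

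Between adjacent ages, the calls in GFP+ cells lay mostly in the last interval. From 4 to 6 dpf, 15 genes were lower and 0 higher (30%, where 3.02% of all probe sets were lower and 1.57% higher), and 5 remained without the third GFP+ array, against 1.27% lower and 1.46% higher among all. These 5 were psma4, psma5, psmb5, psmd4b and psmd10. The count was 9 without the third GFP+ array at 4 dpf, with no share of all probe sets beside it. From 2 to 3 dpf, psme1 alone was called, higher, among GFP+ arrays (0.535% of all were higher and 0.29% lower). From 3 to 4 dpf, psmb6, the beta subunit that holds the caspase-like site, was the only call, 0.63 (SE 0.18, adjusted p = 0.0428) (3.83% of all were higher and 3.06% lower). On the GFP+ arrays psmb6 scored 1.74, 1.55 and 1.90 at 3 dpf and 2.32, 2.14 and 2.63 at 4 dpf, without overlap. That call was lost in 11 of the 24 fits that left out 1 array, across which the difference ran from 0.50 to 0.74, and under quantile normalization, where psmb6 differed by 0.55 and 2 other members were called lower. In GFP- cells the decline was spread out: limma called 0 members from 2 to 3 dpf (3 with an unadjusted p under 0.05; 3.2% of all higher and 1.63% lower), 1 lower from 3 to 4 dpf (1.5% of all higher and 2.57% lower) and 0 from 4 to 6 dpf (9 with an unadjusted p under 0.05; 0.361% and 0.135% of all). The 1 gene was psmd6, a lid subunit, at -0.44 (SE 0.10, adjusted p = 0.0111), and it was lost without the first GFP- array at 3 dpf or the second at 4 dpf.

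Some subunits did not follow the rest. The psmd3 score on GFP+ arrays was 0.36, 0.47 and 0.69 at 2 dpf, then 0.85, 0.81 and 0.53 at 3 dpf, then 1, 0.7 and 1.33 at 4 dpf and lastly 1, 1.09 and 0.24 at 6 dpf. On GFP- arrays psmd3 stood at 0.49, 0.47 and 0.58 at 2 dpf, then 0.49, 0.49 and 0.54 at 3 dpf, then 0.41, 0.38 and 0.65 at 4 dpf and lastly 0.6, 0.45 and 0.33 at 6 dpf. PSMD3 is a scaffold of the lid, and its GFP+ scores at 6 dpf were high on 2 arrays and low on the third. It differed between 6 and 2 dpf by 0.27 (SE 0.18, adjusted p = 0.312) in GFP+ cells, and by 0.54 (SE 0.15), called higher, without the third array; in GFP- cells the difference was -0.05 (SE 0.18, adjusted p = 0.927). For psma6l the GFP+ arrays gave -0.54, -0.44 and -0.32 at 2 dpf, then -0.37, -0.41 and -0.52 at 3 dpf, then -0.23, -0.11 and -0.09 at 4 dpf and lastly -0.18, -0.06 and -0.5 at 6 dpf. Those of psma6l from GFP- cells gave -0.42, -0.33 and -0.53 at 2 dpf, then -0.39, -0.49 and -0.18 at 3 dpf, then -0.11, -0.14 and -0.06 at 4 dpf and lastly 0.04, -0.12 and -0.27 at 6 dpf. The gene psma6l is annotated as a relative of the alpha subunit psma6. It lay below the array median on all arrays but the first GFP- array at 6 dpf, which scored 0.04. Its difference between 6 and 2 dpf was 0.31 (SE 0.11, adjusted p = 0.0544) in GFP- cells and 0.19 (SE 0.11, adjusted p = 0.257) in GFP+ cells, the opposite sign to the other alpha subunits; without the third GFP+ array both were called higher, at 0.31 (SE 0.09) and 0.32 (SE 0.10).

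**Figure D3:**
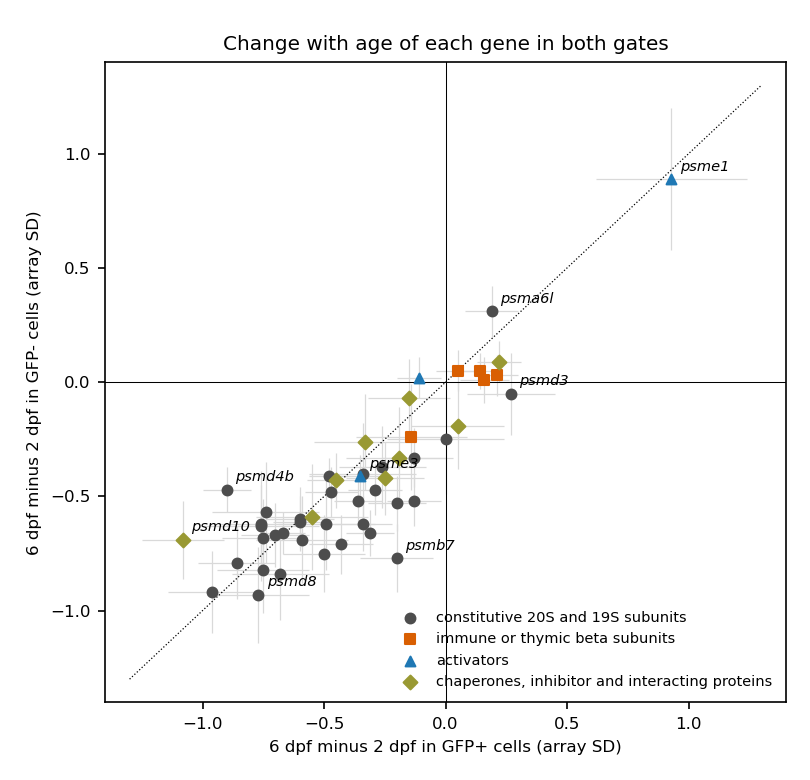
Difference between 6 and 2 dpf in GFP+ cells (x axis) and in GFP- cells (y axis) for each of the 50 genes, in array SD with SE bars; the dotted line marks equal change. Most constitutive subunits (circles) lie at the lower left, the immune or thymic beta subunits (squares) lie near 0 and psme1 lies alone at the upper right.

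The second comparison set the gates against each other. Over the 4 ages 21 of the 50 genes were higher in GFP+ cells and 0 lower, which is 42%, against 37.7% of all probe sets higher and 20.7% lower. The share of higher genes was thus near the background, and the median difference was 0.17 against 0.08 for all. Higher calls made up 64.5% of the calls among all probe sets as deposited and 53.2% after quantile normalization, which called 15 members higher and 0 lower. The share of all probe sets called higher after quantile normalization is not given, so those 15 have no background beside them. When the third GFP+ array at 6 dpf was dropped, 39 members were higher and 0 lower, against 40.8% and 20.8% of all, with a median of 0.22. A fit with the sorted pair as a block called 23, losing psmb9a and gaining psmd10, psmg2 and psmg3. That count has no share of all probe sets beside it. Of the 21 calls, 17 held in every one of the 24 fits without 1 array, and psma1, psma2b, psmb9a and psme3ip1 did not.

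The gate difference was small at 2 dpf and widest at 4 dpf. At 2 dpf 1 gene was higher in GFP+ cells and 0 lower (2%, where 9.66% of all probe sets were higher and 7.36% lower), with a median of 0.03 against 0.05 for all. That count was also 1 without the third GFP+ array at 6 dpf, when 11.4% of all were higher and 8.26% lower. At 3 dpf 5 were higher and 0 lower (10%, where 14.5% of all were higher and 12% lower). These were psma4, psme1, psme2, psme3 and psmc3ip, and the median was 0.12 against 0.03. Omitting the low GFP+ array of 6 dpf gave 9 higher and 0 lower at 3 dpf, against 16.5% and 12.8% of all. Fits without 1 array gave 2 to 9 calls at 3 dpf, and the first and second GFP+ arrays, the first GFP- array and the third GFP- array of that age and the third GFP+ array at 6 dpf each moved the count by over 1.5 times. At 4 dpf 19 were higher and 0 lower (38%, where 19% of all were higher and 11.3% lower). The median was 0.35 against 0.11. The fit that omitted the low array called 25 higher and 0 lower at 4 dpf, against 22.9% and 12.1% of all. At 6 dpf 9 were higher and 1 lower (18% higher, where 23.2% of all were higher and 14.9% lower), with a median of 0.10 against 0.11. Without the third GFP+ array the counts at 6 dpf became 19 higher and 1 lower, against 24.9% and 13.7% of all, and the median 0.29 against 0.12. The first and second GFP+ arrays, the second GFP- array and the third GFP- array at 6 dpf also moved the count of 10 calls by over 1.5 times, to as few as 5. The 3 GFP+ arrays lay above the 3 GFP- arrays without overlap for 6 members at 2 dpf and for 16 at 3 dpf, and for 36 at 4 dpf and 10 at 6 dpf, where this held for 24%, 25.7%, 30.2% and 32.5% of all probe sets. With the third GFP+ array at 6 dpf set aside, the other 2 lay above the GFP- arrays for 36 members and for 48.5% of all probe sets. All 3 GFP+ arrays lay below the 3 GFP- arrays for 0 members at 2, 3 and 4 dpf. Among all probe sets this held for 14.7%, 17.8% and 13% at those ages. At 6 dpf it held for psmd4b and for 17.9% of all. Of the 33 constitutive genes, 29 did not overlap at 4 dpf.

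**Figure D4:**
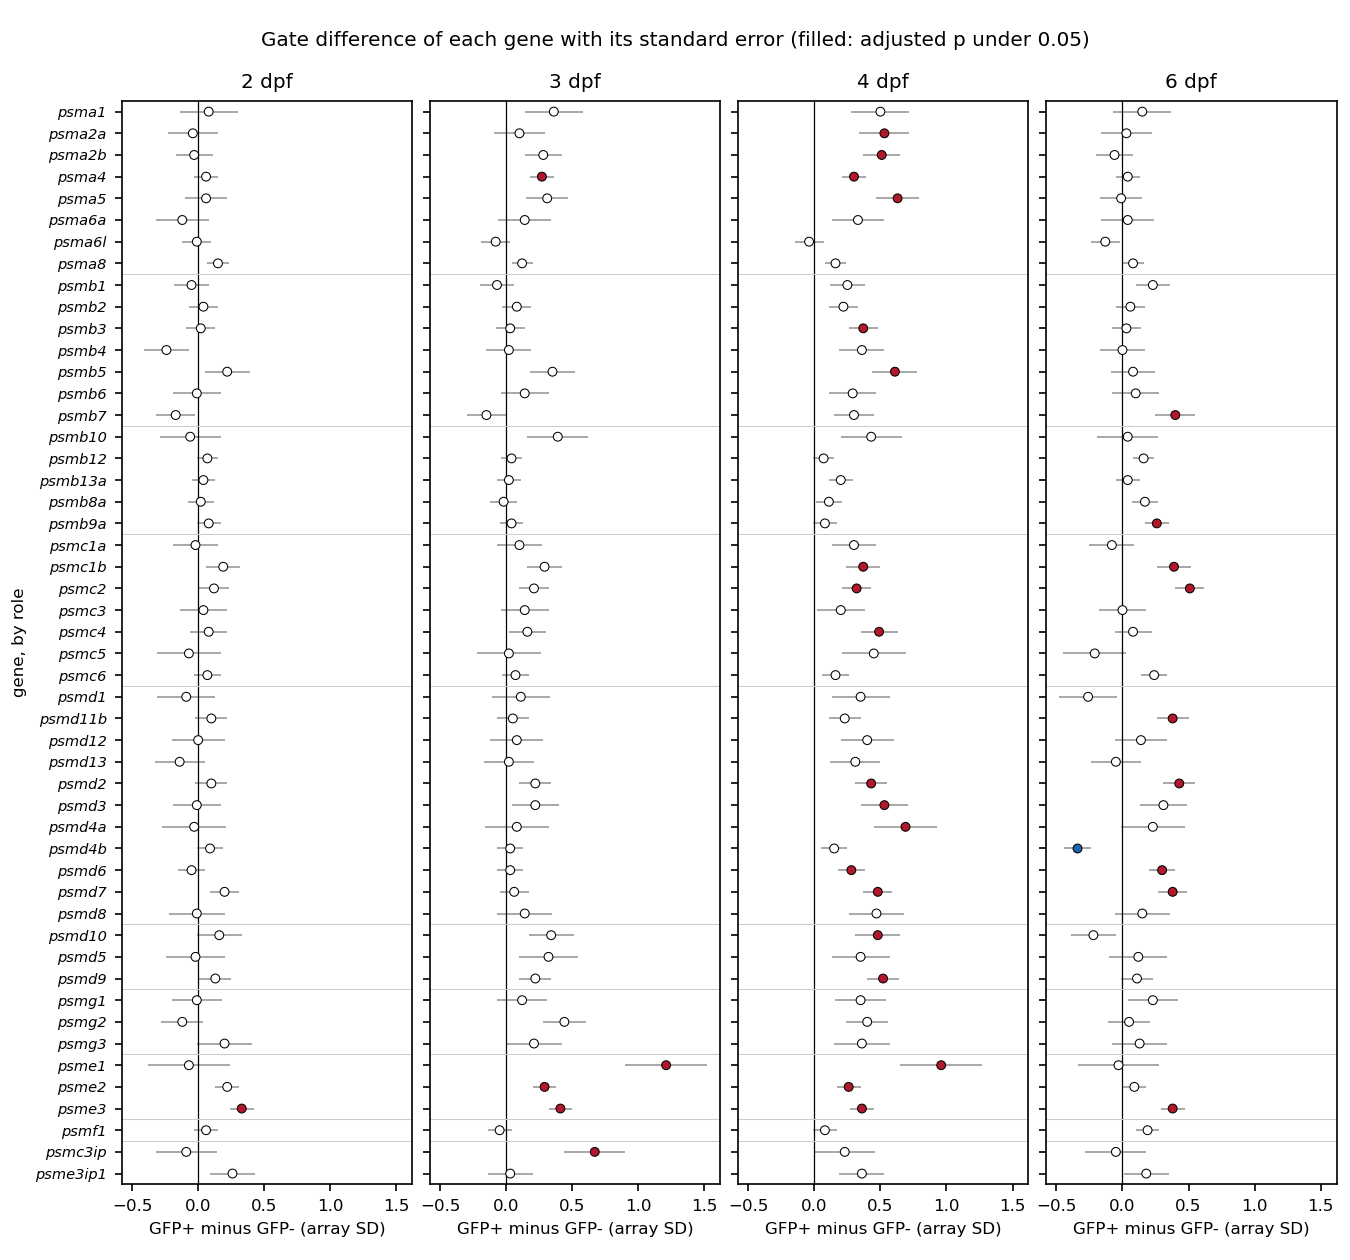
GFP+ minus GFP- difference of each gene at 2, 3, 4 and 6 dpf in array SD, with SE bars, ordered by role; red points were called higher, blue lower and white not called. The column at 4 dpf holds 19 red points, the column at 2 dpf holds 1, psme3, and the blue point at 6 dpf is psmd4b.

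At 4 dpf the calls covered each part of the complex. They were 4 alpha subunits (psma2a, psma2b, psma4 and psma5), 2 constitutive beta subunits (psmb3 and psmb5), 3 ATPases (psmc1b, psmc2 and psmc4), 5 non-ATPase subunits (psmd2, psmd3, psmd4a, psmd6 and psmd7), the 19S chaperones psmd9 and psmd10, and the activators psme1, psme2 and psme3. At that age the other psmc1b probe sets, at 0.46 and 0.18, and the other psmd9 probe set, at 0.41, were not called. With the sorted pair as a block psmd6 and psme2 were lost and psmg3 was gained. Calls were fewer without single arrays of that age: the first GFP+, the third GFP+ and the first and second GFP- arrays at 4 dpf each moved the count by over 1.5 times, to as few as 9. Of the 19 calls, 7 held in every one of the 24 fits without 1 array. In GFP+ cells psmb5 scored 1.11, 1.43 and 1.55 at 2 dpf, then 1.38, 1.24 and 1.1 at 3 dpf, then 1.26, 1.46 and 1.42 at 4 dpf and lastly 0.95, 0.8 and 0.04 at 6 dpf. In GFP- cells psmb5 scored 1.19, 1.06 and 1.19 at 2 dpf, then 0.85, 1.09 and 0.73 at 3 dpf, then 0.61, 0.95 and 0.77 at 4 dpf and lastly 0.61, 0.48 and 0.48 at 6 dpf. PSMB5 carries the chymotrypsin-like site and is the main target of bortezomib. Its gate difference was 0.61 (SE 0.17, adjusted p = 0.0111) at 4 dpf and 0.31 (SE 0.09, adjusted p = 0.00452) over the 4 ages. The gates did not overlap for psmb5 at 3 and 4 dpf and overlapped at 6 dpf, where the third GFP+ array scored 0.04 and the difference without it was 0.35 (SE 0.13), called higher. The psmd4a score on GFP+ arrays was 0.78, 0.86 and 1.43 at 2 dpf, then 1.36, 0.86 and 1.14 at 3 dpf, then 1.56, 1.4 and 1.66 at 4 dpf and lastly 1.4, 1.39 and 0.28 at 6 dpf. On GFP- arrays psmd4a stood at 1.17, 1.07 and 0.91 at 2 dpf, then 1.03, 1.23 and 0.84 at 3 dpf, then 0.98, 0.72 and 0.86 at 4 dpf and lastly 1.13, 0.65 and 0.61 at 6 dpf. PSMD4 is the subunit that captures ubiquitin chains, and zebrafish have a pair of genes for it. The difference of psmd4a at 4 dpf was 0.69 (SE 0.24, adjusted p = 0.0323), the largest of any constitutive subunit at that age. That call was lost in 4 of the 24 fits without 1 array. At 6 dpf the difference of psmd4a was 0.23 (SE 0.24, adjusted p = 0.464). Omitting the third GFP+ array, the value at 6 dpf was 0.60 (SE 0.19), called higher.

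The other psmd4 gene, psmd4b, scored lower in GFP+ than in GFP- cells at 6 dpf alone, and the pair was not tested against each other. For psmd4b the GFP+ arrays gave 1.45, 1.25 and 1.36 at 2 dpf, then 1.2, 1.15 and 1.02 at 3 dpf, then 1.16, 1.11 and 0.85 at 4 dpf and lastly 0.51, 0.54 and 0.3 at 6 dpf. Those of psmd4b from GFP- cells gave 1.24, 1.17 and 1.39 at 2 dpf, then 1.03, 1.14 and 1.11 at 3 dpf, then 0.78, 0.83 and 1.06 at 4 dpf and lastly 0.75, 0.82 and 0.82 at 6 dpf. The score of psmd4b was level between the gates at 2 and 3 dpf. At 4 dpf its group mean was 1.04 in GFP+ and 0.89 in GFP- cells, with overlap. At 6 dpf psmd4b was lower in all 3 GFP+ arrays than in all 3 GFP- arrays. The difference there was -0.34 (SE 0.10, adjusted p = 0.00925), the single lower call of any member between the gates, and -0.27 (SE 0.10) without the third GFP+ array. Between 2 and 6 dpf psmd4b was lower by 0.90 (SE 0.10, adjusted p = 1.49e-06) in GFP+ cells and by 0.47 (SE 0.10, adjusted p = 0.00176) in GFP- cells. The change of its gate difference between 2 and 6 dpf was -0.43 (SE 0.14, adjusted p = 0.0592), which did not pass the test. Whether probes of either gene detect the other's transcript was not tested.

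At 6 dpf the share of higher calls in the fit to all arrays, 18%, was below the 23.2% of all probe sets. Without the third GFP+ array 19 of the 50 members were higher, a share above the 24.9% of all probe sets. With all arrays, the higher calls were psmc1b and psmc2 of the ATPases, psmd2, psmd6, psmd7 and psmd11b of the other 19S subunits, psmb7, psmb9a and psme3. The lower call was psmd4b. Of these 10 calls, 4 held in every one of the 24 fits without 1 array, namely psmc2, psmd2, psmd4b and psme3. In GFP+ cells psmc2 scored 2.12, 1.96 and 2.27 at 2 dpf, then 2.24, 2 and 2.1 at 3 dpf, then 1.96, 1.95 and 2.04 at 4 dpf and lastly 2.15, 2.08 and 1.73 at 6 dpf. In GFP- cells psmc2 scored 2, 2.01 and 2 at 2 dpf, then 1.95, 2.01 and 1.77 at 3 dpf, then 1.62, 1.73 and 1.65 at 4 dpf and lastly 1.44, 1.6 and 1.4 at 6 dpf. PSMC2 is an ATPase at the base of the particle. It had the largest gate difference of any member at 6 dpf, 0.51 (SE 0.11, adjusted p = 0.000773), and the GFP+ arrays lay above the GFP- arrays at 4 and 6 dpf. The psmd2 score on GFP+ arrays was 0.83, 0.98 and 1.19 at 2 dpf, then 1.09, 0.86 and 0.84 at 3 dpf, then 0.95, 0.94 and 1 at 4 dpf and lastly 0.98, 0.71 and 0.74 at 6 dpf. On GFP- arrays psmd2 stood at 0.79, 1.05 and 0.86 at 2 dpf, then 0.68, 0.95 and 0.48 at 3 dpf, then 0.48, 0.57 and 0.56 at 4 dpf and lastly 0.52, 0.3 and 0.3 at 6 dpf. PSMD2 is the scaffold at the base where ubiquitin receptors and a deubiquitinase dock. The difference of psmd2 was 0.43 (SE 0.12, adjusted p = 0.00709) at 6 dpf, with all GFP+ arrays above all GFP- arrays. For psmc1b the GFP+ arrays gave 0.75, 0.89 and 1.29 at 2 dpf, then 1.1, 0.9 and 0.95 at 3 dpf, then 0.81, 0.78 and 0.82 at 4 dpf and lastly 1.03, 1 and 0.53 at 6 dpf. Those of psmc1b from GFP- cells gave 0.79, 0.85 and 0.72 at 2 dpf, then 0.8, 0.68 and 0.6 at 3 dpf, then 0.58, 0.32 and 0.39 at 4 dpf and lastly 0.52, 0.39 and 0.46 at 6 dpf. PSMC1 is another ATPase, with a pair of genes in zebrafish. The difference of psmc1b was 0.31 (SE 0.06, adjusted p = 0.000399) over the 4 ages, while that of psmc1a was 0.08 (SE 0.08, adjusted p = 0.451). The other psmc1b probe sets differed by 0.20, called higher, and by 0.19, not called, over the 4 ages. At 6 dpf they differed by 0.32, called higher, and by 0.06, not called. In GFP+ cells psmb7 scored 2.73, 2.62 and 3 at 2 dpf, then 3, 2.2 and 2.91 at 3 dpf, then 2.78, 2.99 and 2.84 at 4 dpf and lastly 2.62, 2.52 and 2.61 at 6 dpf. In GFP- cells psmb7 scored 2.9, 3.06 and 2.91 at 2 dpf, then 3.02, 2.75 and 2.78 at 3 dpf, then 2.6, 2.47 and 2.61 at 4 dpf and lastly 2.2, 2.21 and 2.15 at 6 dpf. PSMB7 carries the trypsin-like site. Without overlap, it was called higher in GFP+ cells at 6 dpf, 0.40 (SE 0.15, adjusted p = 0.04), after differences of -0.17 (SE 0.15, adjusted p = 0.49) at 2 dpf and -0.15 (SE 0.15, adjusted p = 0.549) at 3 dpf, and the call was lost in 6 of the 24 fits without 1 array, one for each array of that age.

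Some members ranked low in the gate comparison. The psmd1 score on GFP+ arrays was 1.37, 1.63 and 1.97 at 2 dpf, then 1.85, 1.59 and 1.49 at 3 dpf, then 1.44, 1.64 and 1.75 at 4 dpf and lastly 1.39, 1.23 and 0.13 at 6 dpf. On GFP- arrays psmd1 stood at 1.76, 1.73 and 1.75 at 2 dpf, then 1.58, 1.69 and 1.33 at 3 dpf, then 1.25, 1.36 and 1.17 at 4 dpf and lastly 1.33, 1.12 and 1.08 at 6 dpf. PSMD1 is the larger scaffold at the base of the cap. Its gate difference was 0.03 (SE 0.11, adjusted p = 0.851) over the 4 ages and -0.26 (SE 0.22, adjusted p = 0.36) at 6 dpf. There the third GFP+ array, at 0.13, lay far under its group mates. Without that array the value at 6 dpf was 0.13 (SE 0.15). In the fit to all arrays a second psmd1 probe set differed by -0.08 over the 4 ages and -0.34 at 6 dpf, neither called. Between 2 and 6 dpf it differed by -0.86, called lower, in GFP+ cells and by -0.71, not called, in GFP- cells. For psmd13 the GFP+ arrays gave 1.67, 1.66 and 1.96 at 2 dpf, then 1.87, 1.21 and 1.91 at 3 dpf, then 1.67, 1.67 and 1.92 at 4 dpf and lastly 1.55, 1.36 and 0.61 at 6 dpf. Those of psmd13 from GFP- cells gave 1.83, 2 and 1.89 at 2 dpf, then 1.79, 1.53 and 1.62 at 3 dpf, then 1.49, 1.24 and 1.61 at 4 dpf and lastly 1.15, 1.28 and 1.22 at 6 dpf. PSMD13 is a lid subunit. The difference of psmd13 was 0.03 (SE 0.10, adjusted p = 0.774) over the 4 ages, and the gates parted only at 4 dpf, with GFP+ arrays above. In GFP+ cells psmb4 scored 1.81, 1.81 and 2.15 at 2 dpf, then 2.09, 1.77 and 2.07 at 3 dpf, then 2.16, 2.13 and 2.27 at 4 dpf and lastly 1.83, 1.47 and 0.96 at 6 dpf. In GFP- cells psmb4 scored 2.13, 2.21 and 2.15 at 2 dpf, then 2.05, 1.83 and 1.98 at 3 dpf, then 1.81, 1.56 and 2.11 at 4 dpf and lastly 1.36, 1.45 and 1.44 at 6 dpf. PSMB4 is a non-catalytic beta subunit. It had the lowest gate difference of any member at 2 dpf, -0.24 (SE 0.17, adjusted p = 0.371), and at 4 dpf its GFP+ arrays lay above the GFP- arrays. The remaining constitutive genes were not called between the gates at any single age, and these were psma1, psma6a, psma6l, psma8, psmb1, psmb2, psmb4, psmb6, psmc1a, psmc3, psmc5, psmc6, psmd1, psmd8, psmd12 and psmd13. Of these, psma1, psma6a, psmb4, psmc1a, psmc5 and psmd8 were called higher at 4 dpf, and psma1, psma6a, psmc6 and psmd8 at 6 dpf, when the low array was dropped. Averaged over the 4 ages, psma1, psma8 and psmc6 were called higher in the fit to all arrays, at 0.27, 0.13 and 0.13. A second psmd12 probe set was called higher at 4 dpf, by 0.32, and over the 4 ages, by 0.20.

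Whether the gate difference changed with age was tested directly. Between 2 and 6 dpf limma called 0 of the 50 members (3.54% of all probe sets higher and 4.89% lower), with 4 at an unadjusted p under 0.05, namely psmb7, psmc2, psmd4b and psmd6. The largest rises were 0.57 (SE 0.21, adjusted p = 0.105) for psmb7 and 0.39 (SE 0.15, adjusted p = 0.118) for psmc2, and the largest drops -0.43 (SE 0.14, adjusted p = 0.0592) for psmd4b and -0.39 (SE 0.24, adjusted p = 0.365) for psmd10. Array weights called 11 members, and the fit without the third GFP+ array called 3, psma6a, psmc2 and psmc6, all higher, when 5.75% of all were higher and 5.5% lower. The F test over all 4 ages called 0 members with 6 at an unadjusted p under 0.05 (6.95% of all called), and 11 with array weights. Neither count of 11 has a share of all probe sets beside it. The wider gap at 4 dpf is thus a description of counts at separate ages for single genes, none of which passed a test of the change as fitted over all arrays.

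Averaged over the ages, all 3 activators scored higher in GFP+ cells. The psme3 score on GFP+ arrays was 2.59, 2.42 and 2.46 at 2 dpf, then 2.27, 2.46 and 2.26 at 3 dpf, then 2.28, 2.08 and 2.11 at 4 dpf and lastly 2.2, 2.13 and 2.08 at 6 dpf. On GFP- arrays psme3 stood at 2.16, 2.22 and 2.11 at 2 dpf, then 1.9, 1.96 and 1.9 at 3 dpf, then 1.92, 1.57 and 1.91 at 4 dpf and lastly 1.79, 1.67 and 1.82 at 6 dpf. PSME3 is the nuclear 11S activator, known for degrading cell cycle inhibitors without ubiquitin. The gates did not overlap for psme3 at any age, and it was the only member called at all 4 ages (5.19% of all probe sets were called higher at every age and 3.74% lower). The difference over the 4 ages was 0.37 (SE 0.05, adjusted p = 1.16e-06), and psme3 fell with age in both gates, by 0.35 (SE 0.09, adjusted p = 0.00787) in GFP+ and 0.41 (SE 0.09, adjusted p = 0.00361) in GFP- cells. At 2 dpf the call was lost without the first GFP+ or the third GFP- array of that age.

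For psme1 the GFP+ arrays gave -0.4, -0.29 and -0.29 at 2 dpf, then 1.12, 1.15 and 0.87 at 3 dpf, then 0.76, 2.08 and 0.77 at 4 dpf and lastly 1.16, 0.82 and -0.19 at 6 dpf. Those of psme1 from GFP- cells gave -0.34, -0.32 and -0.14 at 2 dpf, then -0.13, -0.29 and -0.07 at 3 dpf, then 0.08, 0.43 and 0.21 at 4 dpf and lastly 0.2, 1.16 and 0.52 at 6 dpf. PSME1 is an interferon-responsive activator that in mammals pairs with PSME2 on immunoproteasomes. GFP+ arrays were level with GFP- arrays at 2 dpf, lay above all of them at 3 and 4 dpf, and overlapped them again at 6 dpf. From 2 to 3 dpf psme1 rose in GFP+ cells by 1.38 (SE 0.31, adjusted p = 0.0378), and the call was lost in 12 of the 24 fits without 1 array, although the difference stayed between 1.33 and 1.47. The gate difference was 1.21 (SE 0.31, adjusted p = 0.00604) at 3 dpf, 0.96 (SE 0.31, adjusted p = 0.0246) at 4 dpf and -0.03 (SE 0.31, adjusted p = 0.951) at 6 dpf. The second GFP+ array at 4 dpf, at 2.08, was far above the others, and without it the difference at 4 dpf was 0.52 and not called; the call was also lost without the first or the third GFP- array of that age. Between 2 and 6 dpf psme1 was higher by 0.93 (SE 0.31, adjusted p = 0.0378) in GFP+ cells, and the difference of 0.89 (SE 0.31, adjusted p = 0.0534) in GFP- cells did not pass the test. The GFP+ call was lost in 5 of the 24 fits without 1 array. The array left out was any GFP+ array at 2 dpf, or the first or second at 6 dpf. Without the third GFP+ array the GFP+ value was 1.32 (SE 0.29) and the gate difference at 6 dpf 0.36 (SE 0.29), the latter not called, and the GFP- value, 0.89 (SE 0.26), was then called higher. The digestive marker median of the GFP- gate moved over the same ages, and its part in that value was not tested.

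In GFP+ cells psme2 scored 0.63, 0.53 and 0.54 at 2 dpf, then 0.58, 0.57 and 0.54 at 3 dpf, then 0.68, 0.46 and 0.88 at 4 dpf and lastly 0.46, 0.42 and 0.49 at 6 dpf. In GFP- cells psme2 scored 0.37, 0.27 and 0.4 at 2 dpf, then 0.13, 0.32 and 0.38 at 3 dpf, then 0.41, 0.42 and 0.41 at 4 dpf and lastly 0.49, 0.32 and 0.29 at 6 dpf. PSME2 is the partner of PSME1. GFP+ arrays of psme2 lay above GFP- arrays at 2, 3 and 4 dpf and overlapped them at 6 dpf, with 0.29 (SE 0.09, adjusted p = 0.0242) at 3 dpf and 0.26 (SE 0.09, adjusted p = 0.0353) at 4 dpf; with the sorted pair as a block both calls were lost. From 2 to 3 dpf, where psme1 rose, the difference of psme2 in GFP+ cells was -0.01 (SE 0.09, adjusted p = 1.0). The inhibitor psmf1, which binds the core and competes with activators, passed no test in any comparison fitted to all arrays, with a difference of 0.07 (SE 0.04, adjusted p = 0.193) over the 4 ages. Leaving out the low array at 6 dpf, psmf1 was higher at 6 than at 2 dpf in GFP+ cells, by 0.31 (SE 0.08), and higher in GFP+ than in GFP- cells over the 4 ages and at 6 dpf. In the fit to all arrays a second psmf1 probe set differed by -0.05 between 6 and 2 dpf in GFP+ cells, against 0.22. Between the gates this probe set differed by 0.05 at 6 dpf, against 0.19, and by 0.09 over the 4 ages.

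**Figure D5:**
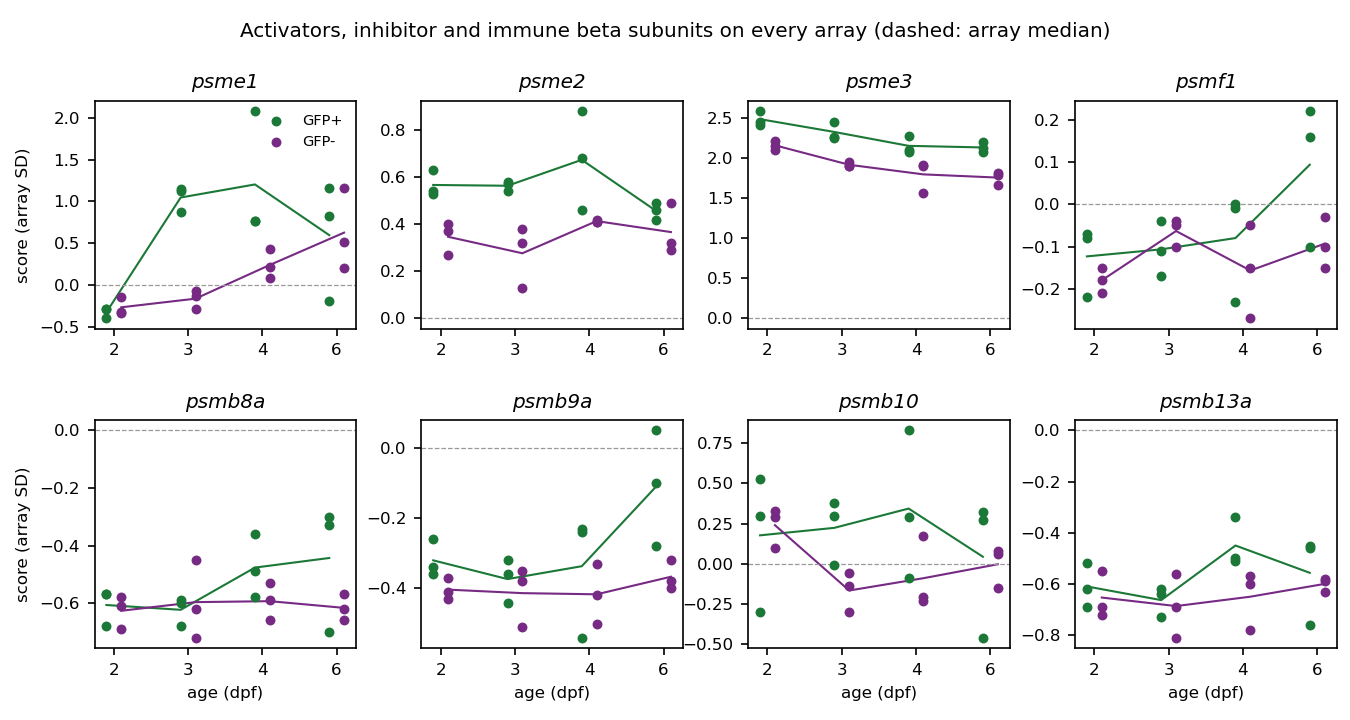
Scores on every array (points; green GFP+, purple GFP-) and group means (lines) of the activators psme1, psme2 and psme3, the inhibitor psmf1 and the beta subunits psmb8a, psmb9a, psmb10 and psmb13a, against age in dpf, each panel with its own scale. GFP+ points of psme3 stay above GFP- points at every age, those of psme1 do so at 3 and 4 dpf, and psmb8a, psmb9a and psmb13a lie below the array median apart from 1 GFP+ point of psmb9a at 0.05.

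Of the 5 immune and thymic beta subunits, psmb8a, psmb9a, psmb12 and psmb13a scored below the array median on all arrays but 1, a GFP+ array of psmb9a at 6 dpf. In RefSeq's assembly GRCz12tu, psmb13a, psmb8a, psmb12 and psmb9a lie side by side with 0 protein-coding genes between neighbours, and the cluster is known as a part of the zebrafish MHC region. None of the 5 genes was higher or lower with age in either gate. The psmb8a score on GFP+ arrays was -0.57, -0.68 and -0.57 at 2 dpf, then -0.6, -0.59 and -0.68 at 3 dpf, then -0.58, -0.36 and -0.49 at 4 dpf and lastly -0.3, -0.33 and -0.7 at 6 dpf. On GFP- arrays psmb8a stood at -0.61, -0.58 and -0.69 at 2 dpf, then -0.45, -0.72 and -0.62 at 3 dpf, then -0.59, -0.66 and -0.53 at 4 dpf and lastly -0.66, -0.57 and -0.62 at 6 dpf. PSMB8 replaces PSMB5 in immunoproteasomes. Every array had psmb8a below the array median, and the gates overlapped at all ages. For psmb9a the GFP+ arrays gave -0.36, -0.34 and -0.26 at 2 dpf, then -0.44, -0.32 and -0.36 at 3 dpf, then -0.23, -0.54 and -0.24 at 4 dpf and lastly 0.05, -0.1 and -0.28 at 6 dpf. Those of psmb9a from GFP- cells gave -0.37, -0.43 and -0.41 at 2 dpf, then -0.38, -0.51 and -0.35 at 3 dpf, then -0.42, -0.33 and -0.5 at 4 dpf and lastly -0.32, -0.4 and -0.38 at 6 dpf. PSMB9 replaces PSMB6. The GFP+ arrays of psmb9a were above the GFP- arrays at 2 and 6 dpf, with a difference of 0.26 (SE 0.09, adjusted p = 0.0327) at 6 dpf that was lost with the sorted pair as a block, where its adjusted p was 0.0768. In GFP+ cells psmb12 scored -0.41, -0.55 and -0.62 at 2 dpf, then -0.58, -0.55 and -0.6 at 3 dpf, then -0.46, -0.44 and -0.53 at 4 dpf and lastly -0.34, -0.4 and -0.42 at 6 dpf. In GFP- cells psmb12 scored -0.6, -0.5 and -0.68 at 2 dpf, then -0.57, -0.71 and -0.58 at 3 dpf, then -0.4, -0.6 and -0.64 at 4 dpf and lastly -0.65, -0.44 and -0.55 at 6 dpf. The gene psmb12 is a relative within the cluster. It was below the array median throughout, with a difference of 0.07 (SE 0.08, adjusted p = 0.55) at 4 dpf. At 6 dpf its GFP+ arrays lay above the GFP- arrays, as held for 32.5% of all probe sets, and it was not called.

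The psmb13a score on GFP+ arrays was -0.52, -0.62 and -0.69 at 2 dpf, then -0.64, -0.62 and -0.73 at 3 dpf, then -0.5, -0.34 and -0.51 at 4 dpf and lastly -0.46, -0.45 and -0.76 at 6 dpf. On GFP- arrays psmb13a stood at -0.69, -0.55 and -0.72 at 2 dpf, then -0.56, -0.81 and -0.69 at 3 dpf, then -0.57, -0.6 and -0.78 at 4 dpf and lastly -0.63, -0.59 and -0.58 at 6 dpf. The GFP+ arrays of psmb13a lay above the GFP- arrays at 4 dpf, where the difference of 0.20 (SE 0.09, adjusted p = 0.107) did not pass the test. For psmb10 the GFP+ arrays gave -0.3, 0.3 and 0.53 at 2 dpf, then 0.3, -0.01 and 0.38 at 3 dpf, then -0.09, 0.83 and 0.29 at 4 dpf and lastly 0.27, 0.32 and -0.46 at 6 dpf. Those of psmb10 from GFP- cells gave 0.29, 0.1 and 0.33 at 2 dpf, then -0.3, -0.06 and -0.14 at 3 dpf, then -0.23, -0.21 and 0.17 at 4 dpf and lastly 0.06, 0.08 and -0.15 at 6 dpf. PSMB10 replaces PSMB7. Scores of psmb10 lay on both sides of the array median, with a wide spread within groups. Its gate difference of 0.20 (SE 0.11, adjusted p = 0.137) over the 4 ages was not called, but was called higher, at 0.26 (SE 0.10), without the low array. When the third GFP+ array at 6 dpf was omitted, psmb8a and psmb9a were higher in GFP+ cells at 6 dpf, by 0.30 (SE 0.08) and 0.34 (SE 0.09), and higher at 6 than at 2 dpf there. Both scored low, with means of -0.57 and -0.34 over the 24 arrays. At 6 dpf the lower quartile of scores was -0.397 and -0.399 on the first and second GFP+ arrays. On the GFP- arrays it was -0.489, -0.545 and -0.502, and its part in these calls was not tested. Of 17 leukocyte markers, 9 were lower and 3 higher in GFP+ than in GFP- cells over the 4 ages. Among all probe sets 20.7% were lower and 37.7% higher. The median of the leukocyte list ran from -0.59 to -0.33 on GFP+ arrays and from -0.26 to 0.55 on GFP- arrays. Of 11 genes of antigen processing and its interferon control, 4 were higher and 0 lower over the 4 ages, a share of 36.4% against 37.7% of all probe sets.

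The interacting proteins are given for completeness. In GFP+ cells psmc3ip scored -0.58, -0.01 and 0.73 at 2 dpf, then 0.39, 0.44 and -0.09 at 3 dpf, then -0.07, -0.02 and 0.04 at 4 dpf and lastly -0.29, -0.36 and -0.87 at 6 dpf. In GFP- cells psmc3ip scored 0.12, 0.18 and 0.11 at 2 dpf, then -0.42, -0.51 and -0.34 at 3 dpf, then 0.05, -0.64 and -0.13 at 4 dpf and lastly -0.36, -0.56 and -0.43 at 6 dpf. The score of psmc3ip was higher in GFP+ than in GFP- cells at 3 dpf, 0.67 (SE 0.23, adjusted p = 0.0395), without overlap, and varied widely within the GFP+ group at 2 dpf. The call was lost in 5 of the 24 fits without 1 array, and another psmc3ip probe set differed by 0.10 at 3 dpf and was not called. The psme3ip1 score on GFP+ arrays was 1.32, 1.05 and 1.32 at 2 dpf, then 1.07, 0.75 and 1.02 at 3 dpf, then 1.18, 1.53 and 1.16 at 4 dpf and lastly 1.27, 1.35 and 0.62 at 6 dpf. On GFP- arrays psme3ip1 stood at 1.05, 0.95 and 0.91 at 2 dpf, then 0.75, 1.22 and 0.78 at 3 dpf, then 0.83, 0.96 and 1.01 at 4 dpf and lastly 1.17, 0.78 and 0.76 at 6 dpf. Its gate difference at 2 dpf, 0.26 (SE 0.17, adjusted p = 0.351), did not pass the test, and another probe set of the gene, with a mean score of 0.81 against 1.03, differed by -0.36 there. Over the 4 ages psme3ip1 was called higher at 0.21 (SE 0.09, adjusted p = 0.0472), whereas its other probe sets gave -0.09, 0.21 and 0.12, of which the one at 0.21 was called.

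Beside the 50 genes stood others that work with the proteasome, for which 37.7% of all probe sets higher between gates, and 13% and 9.64% lower with age in GFP+ and GFP- cells, are the background. Of 6 subunits and partners of the 19S particle under other names, 5 scored higher in GFP+ cells over the 4 ages and 0 lower: adrm1, a ubiquitin receptor, uchl5 and usp14, deubiquitinases at the cap, txnl1, a thioredoxin that docks there, and ecpas, which holds core and cap together. With age, uchl5 fell by 0.94 (SE 0.15) in GFP+ and 0.74 (SE 0.15) in GFP- cells, and usp14 by 0.59 (SE 0.13) and 0.38 (SE 0.13). The GFP+ value of usp14 was -0.37, still called, without the third GFP+ array. The gene ecpas went the other way in GFP+ cells, where it was higher by 0.99 (SE 0.10), and differed by 0.08 (SE 0.10) in GFP- cells, which was not called. Of the 7 other assembly and regulatory genes, pomp, the maturation factor of the core, was higher in GFP+ cells by 0.25 (SE 0.04) and fell with age by 0.61 (SE 0.09) in GFP- cells, and nfe2l2a, a stress regulator, was higher by 0.23 (SE 0.05). Lower in GFP+ cells were zfand5a and akirin1, the latter by 0.14 (SE 0.06); akirin1 fell with age in both gates, and its gate call was lost, at -0.13, without the third GFP+ array.

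Upstream of the protease, 5 of 14 genes for ubiquitin, its relatives and their E1 enzymes scored higher in GFP+ cells over the 4 ages and 2 lower, which is 35.7% and 14.3%, near the 37.7% and 20.7% of all probe sets. With age, 7 of 14 fell in GFP+ cells (6 without the third array) and 6 in GFP- cells. The main E1 enzyme, uba1, fell by 0.37 (SE 0.07) and 0.42 (SE 0.07), and sae1, of the SUMO E1, by 1.54 (SE 0.20) and 1.16 (SE 0.20). The modifier ufm1 did the reverse in GFP+ cells and was higher at 6 than at 2 dpf by 0.88 (SE 0.14). It is known for a role in secretory cells at the endoplasmic reticulum. Among 15 shuttles and Cdc48 cofactors, which carry ubiquitin-tagged proteins to the proteasome, 11 scored higher in GFP+ cells over the 4 ages and 1, faf1, was lower, while 3 fell with age in GFP+ and 1 in GFP- cells. The call of faf1 between gates was lost without the third GFP+ array, and 0 of 15 were then lower with age in GFP+ and 3 in GFP- cells. The 1 was vcp, the Cdc48 ATPase, which fell by 0.83 (SE 0.16) in GFP- and by 0.46 (SE 0.16) in GFP+ cells, the latter -0.22 and not called without that array. Of 27 E2 enzymes, 10 fell with age in GFP+ and 5 in GFP- cells, of 33 deubiquitinases 9 and 6, and of 15 cullin ligase core genes 3 and 1. As shares these were 37% and 18.5%, 27.3% and 18.2%, and 20% and 6.67%, against 13% and 9.64% of all probe sets. Without the third GFP+ array, when 11.2% and 11.3% of all were lower, the counts were 7 and 6 for the E2 enzymes, 8 and 7 for the deubiquitinases, and 2 and 3 for the cullin ligase genes.

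Other large complexes give a scale for these counts. In GFP- cells 6 of 13 genes of the translation factor eIF3 were called lower with age. So were 6 of 8 genes of the CCT chaperonin, which folds actin and tubulin. Of the COP9 signalosome, a complex related in build to the proteasome lid, 0 of 8 were called lower. Its median on GFP- arrays still ran from 1.25 to 1.41 at 2 dpf and from 0.88 to 1.05 at 6 dpf, without overlap. In that gate 25 of 33 constitutive proteasome subunits and 9.64% of all probe sets were called lower. In GFP+ cells the counts were 0 of 13, 2 of 8 and 2 of 8, against 22 of 33 constitutive proteasome subunits, and 13% of all probe sets. These became 0 of 13, 0 of 8 and 0 of 8, against 13 of 33 and 11.2% of all, without the third GFP+ array, and in GFP- cells COP9 then had 3 of 8. On that array the COP9 median was 0.49 against 1.36 on both group mates, while the eIF3 median was 2.33 against 2.50 and 2.48. Over the 4 ages 9 of 13 eIF3, 6 of 8 CCT and 1 of 8 COP9 genes were higher in GFP+ cells (37.7% of all probe sets), COP9 reaching 3 of 8 without the low array, and 1 eIF3 gene, eif3hb, was lower. These lists differ in size and share the arrays, so the counts are descriptions.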

How the data were processed

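RNA from sorted cells was amplified to cDNA by SPIA, tagged with biotin and put on Affymetrix zebrafish arrays, per the labels' protocols. The submitters' processing notes name RMA. The deposited values are a score for each of 15617 probe sets, with the median at 0 and the SD at 1 on each of the 24 arrays; neither the scaling step nor the log base is recorded in the labels or file headers. The plan had assumed log2 values, so the same model was fitted to the scores. Precision is set by the number of arrays.

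After removal of 115 control probe sets, 15502 entered the tests with no cut on signal. The annotation named 1 gene for 10795 of them, several for 135 and none for 4572. Limma 3.58.1 in R 4.3.3 fitted 8 group means, with two-sided moderated tests (prior degrees of freedom 3.59), and p-values were adjusted by Benjamini-Hochberg in each comparison, with 0.05 as the threshold. The fit was tested on simulated data. The series' design text says that a replicate yielded both gates, so samples with the same number were taken as pairs. Residuals of the 12 pairs correlated between -0.079 and 0.312, and 4 were over 0.1. Alternatives were the pair as a block, quantile normalization, weights for arrays, a robust prior with a trend, averaging the probe sets of a gene, a floor at the median, fits to the compared groups alone, and omission of each array.

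The members and lists were chosen with earlier results of these data known. Values on every array are given for the 4 members that differed most each way over the 4 ages, for the 2 that did so at each age, in each gate from 2 to 6 dpf and in the change of the gate difference, and for activators and immune or thymic subunits. The planned motif search of promoters was not run.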

Additional observations from a re-analysis of the deposited data

How the results depend on the processing

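The pair as a block left 23 members called over the 4 ages against 21 without it, changed the calls of psmb9a, psmd6, psme2, psmd10, psmg2 and psmg3 named in the text, and changed no other member's call.

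Array weights, which gave the third GFP+ array at 6 dpf a weight of 0.13, raised the counts of members called to 42 over the 4 ages, 17 at 3 dpf, 25 at 6 dpf, 4 from 3 to 4 dpf in GFP+ cells, and 6, 4 and 2 for the successive steps in GFP- cells, and to 11 both for the change of the gate difference and for the F test. Fits on the groups compared alone gave 10 at 3 dpf, 12 at 4 dpf, 5 at 6 dpf, 8 between 2 and 6 dpf in GFP+ cells, 0 from 3 to 4 and from 4 to 6 dpf in GFP+ cells, 2 and 0 for the first steps in GFP- cells, and 1 for the change of the gate difference, with fewer arrays to estimate the spread. Quantile normalization turned the single call from 3 to 4 dpf in GFP+ cells into 2 lower. It moved the share of higher among all calls from 55.5% to 45.4% for that step and from 34.3% to 46.1% from 4 to 6 dpf. The cause was not tested beyond these values. Shares of all probe sets called are not given beside the counts for the pair as a block, array weights, the compared groups alone or quantile normalization. Nor are they given for fits without 1 array, apart from those given for the third GFP+ array at 6 dpf. Those counts therefore cannot be read as particular to the proteasome genes.

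Leaving out 1 array gave 17 to 39 members called over the 4 ages, 0 to 1 at 2 dpf, 2 to 9 at 3 dpf, 9 to 25 at 4 dpf and 5 to 20 at 6 dpf. Between 2 and 6 dpf the range was 17 to 26 in GFP+ and 25 to 33 in GFP- cells. For the steps in age it was 0 to 1, 0 to 2 and 5 to 19 in GFP+ cells and 0 to 0, 0 to 3 and 0 to 1 in GFP- cells. It was 0 to 3 for the change of the gate difference and 0 to 1 for the F test.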
